A study of Caenorhabditis elegans with 6 samples.

Results

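The F-box genes examined here were the rows of the deposited table whose symbols belong to the fbxa, fbxb and fbxc families of Caenorhabditis elegans, matched by name, with no value entering the match. They numbered 328 of 41862 features, namely 174 fbxa, 106 fbxb and 48 fbxc genes. RNA had been sequenced from neuronal nuclei pulled down from L1 larvae, the stage that hatches from the egg. The 3 mutant libraries came from strain OH17055, a sextuple mutant described as null for the CUT homeobox genes ceh-44, ceh-21, ceh-48, ceh-39, ceh-38 and ceh-41. The 3 control libraries came from strain OH16748, labelled wildtype. The labels give both strains the UPN INTACT transgene, named otIs790 in the control strain, which tags nuclei so that they can be immunoprecipitated. Each library was made from worms grown in bulk on large plates, so it pools many animals, and 1 strain stands for each genotype. The labels do not say whether replicates were separate cultures, so p-values measure the spread between these libraries, which may be technical.

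F-box proteins are the parts of SCF ubiquitin ligases that recognise substrates. The F-box binds a Skp1-related protein, which in the worm is encoded by the skr genes, and the Skp1-related protein connects it to a cullin that carries the ubiquitin-transferring machinery. Nematodes have expanded this family far beyond what is found in mammals, and the substrates of most fbxa, fbxb and fbxc proteins are not known. CUT homeobox proteins are transcription factors, several of which are expressed throughout the worm nervous system.

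Whole reads could be recovered from the normalized values, and the libraries held 15500882 to 20844986 reads in mutants and 18768796 to 20352179 reads in controls. Of the 6 targeted genes, 5 had lower normalized counts in every mutant library than in every control library. The exception was ceh-44, at 15679 to 19055 in mutants and 8117 to 11352 in controls, so its RNA was not reduced in the libraries labelled null for it. All 20 genes of a pan-neuronal marker list were detected, and 6 fell in the mutant (30%, against 10.5% of all tested features). None of the 20 rose by limma, edgeR or DESeq2 or was higher with an unadjusted limma p below 0.05. Summed normalized counts of that list were 215915 to 363247 in mutants and 436711 to 511384 in controls. Of 12 muscle markers, 2 rose, ttn-1 and unc-89 (16.7%, against 7.56% of all tested features). A negative difference was found for 8 of the 12, and the list's median log2 difference was −0.06. Summed normalized counts of the 12 were 327726 to 386936 in mutants and 258501 to 314672 in controls, which did not overlap. Without ttn-1 and unc-89 they were 195202 to 241651 in mutants and 195664 to 229350 in controls, which overlapped. These 2 genes were left out because they passed the threshold in these data, a choice that favours overlap of the rest. In such bulk samples, fewer nuclei of a type and less RNA per nucleus cannot be told apart.

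More F-box genes were higher in the mutant than lower. Differences were tested with limma on log2(normalized count + 1) across all 17900 features that averaged at least 10 normalized counts, of which 173 were F-box genes. At a p of 0.05 after Benjamini-Hochberg (BH) adjustment over all of them, 35 F-box genes (20.2%) rose, while 7.56% of all features rose. Another 11 F-box genes (6.36%) fell, while 10.5% of all features fell. The median log2 difference, mutant minus control, was 0.39 over the 173 F-box genes and −0.02 over all features, and 124 of the 173 had a positive difference. Log2 differences on this scale understate the changes of low genes. Under scaling to equal totals, 39 F-box genes rose and 6 fell. That scaling moved the median of all features up by 0.17, and the F-box median then lay 0.40 above the median of all features, against 0.41 with the values as deposited. The count of F-box genes that rose was 22, 21 and 17 without control replicates 1, 2 and 3 in turn, 18 without mutant replicate 3, 32 without mutant replicate 1 and 29 without mutant replicate 2. The count that fell was 4, 3 and 6 without control replicates 1, 2 and 3 in turn, 6 without mutant replicate 3, 9 without mutant replicate 1 and 12 without mutant replicate 2. In those 6 fits the share of F-box genes that rose was 9.83% to 18.5%, against 3.03% to 8.96% of all features.

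**Figure D1:**
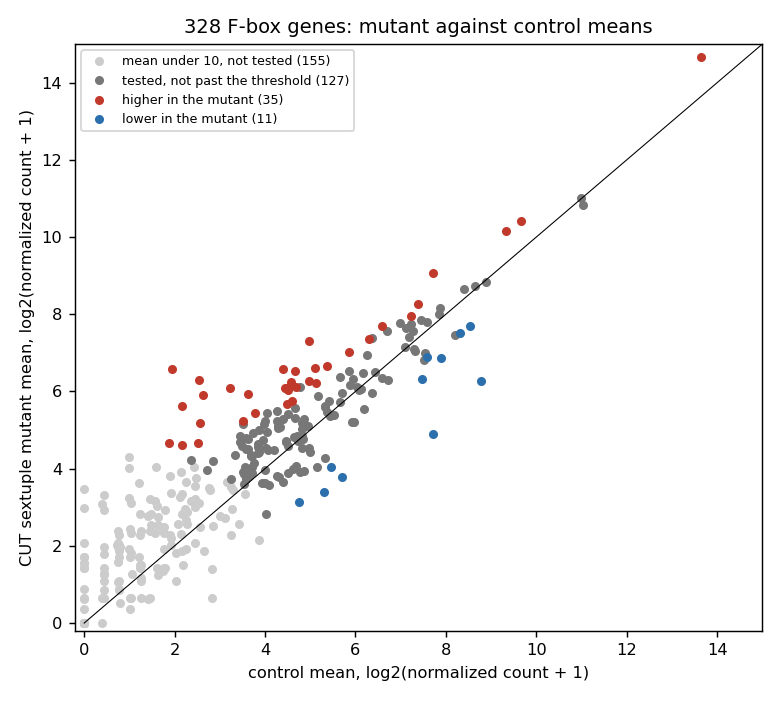
Mean of the 3 mutant libraries (vertical axis) against the mean of the 3 control libraries (horizontal axis) for each of the 328 F-box genes, both as log2(normalized count + 1). Points above the diagonal are higher in the mutant. The 35 red genes lie above it and the 11 blue ones below, and the gene at the upper right is fbxa-24.

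**Figure D2:**
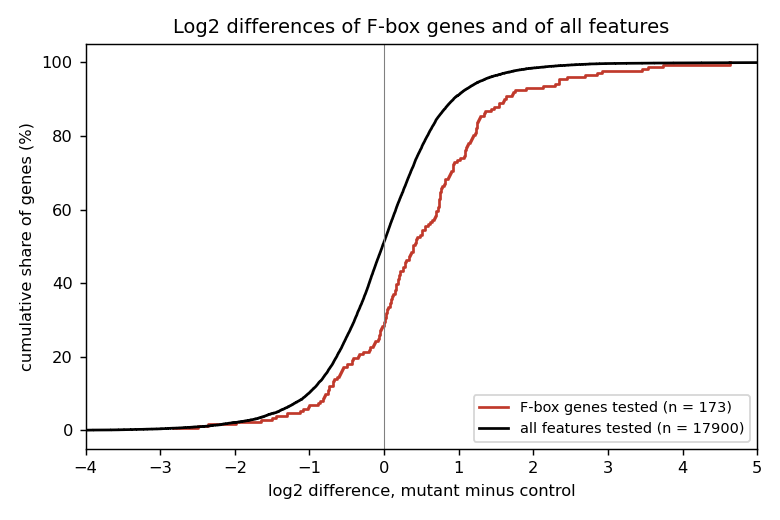
Cumulative share of genes (vertical axis, percent) against the log2 difference, mutant minus control (horizontal axis, drawn from −4 to 5), for the 173 tested F-box genes and all 17900 tested features. The F-box curve lies to the right, with medians of 0.39 for F-box genes and −0.02 for all features.

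Members that pass the filter only through the group where they are high had to differ, so the same counts were taken over genes averaging at least 10 in both groups. These were 154 F-box genes, of which 26 rose (16.9%) and 9 fell (5.84%), and 16486 features, of which 7.32% rose and 10.5% fell. Level also differed, since the tested F-box genes had a median mean of 31.9 normalized counts and all tested features one of 130. Among genes averaging 10 to 50 normalized counts, 19 of 112 F-box genes rose, or 17%, and 5.15% of all features did. Among those averaging at least 50, 16 of 61 rose, or 26.2%, and 8.72% of all features did. Mutant and control libraries did not overlap for 61 F-box genes that were higher in the mutant (35.3%), while 19.5% of all features had that pattern. They did not overlap for 21 that were lower (12.1%), while 20.4% of all features had that pattern.

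Markers of other cell types were counted in the same fits, and of the germline, epidermis and intestine lists only the germline one had sums that did not overlap between groups. Of 12 germline markers, 11 were tested and 3 (mex-5, oma-1 and gld-1) rose (27.3%, against 7.56% of all features). The list's summed normalized counts were 944 to 1209 in mutants and 506 to 689 in controls. Its median log2 difference was 0.87, and 10 of the 11 were positive, 7 of them with an unadjusted limma p below 0.05. Groups did not overlap for 8 that were higher (72.7%, against 19.5% of all features), so the rise was not limited to the 3 genes past the threshold. Of 12 epidermis markers, 10 were tested and 1, bli-1, rose (10%, against 7.56% of all features). Their sums overlapped, at 2123 to 4042 in mutants and 1669 to 2767 in controls. None of 12 intestine markers passed the threshold by limma, edgeR or DESeq2, although by limma 2 were higher and 1 was lower with an unadjusted p below 0.05. The intestine list had a median log2 difference of −0.17, and its sums overlapped, at 22025 to 40196 in mutants and 29257 to 38845 in controls. No marker of these lists was at 0 in all 6 libraries, and the part of any other cell type in the F-box counts was not tested.

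The 8 F-box genes with the largest rises all averaged under 10 normalized counts in controls, and 6 of the 8 are fbxb genes. All 8 thus passed the filter only through the mutant libraries, so a higher mutant mean was fixed by their choice. The largest rise was in fbxb-52, with 162, 30.1 and 90.3 normalized counts in mutant replicates 1, 2 and 3, against 6.53, 1.04 and 0.971 in control replicates 1, 2 and 3. The lowest mutant library was thus above the highest control library, although the mutant libraries differed widely among themselves. Its log2 difference was 4.63 (SE 0.73, BH-adjusted limma p 0.00318). Next was fbxa-42, with 43.0, 102 and 89.5 in the mutant libraries and 4.36, 7.30 and 2.91 in the control libraries. Here too the groups were well apart, with a log2 difference of 3.73 (SE 0.49, BH-adjusted limma p 0.00127). For fbxb-60 the mutant libraries had 35.4, 85.3 and 57.4 normalized counts and the controls 2.18, 11.5 and 1.94, with control replicate 2 the highest of the controls. Its log2 difference was 3.54 (SE 0.63, BH-adjusted limma p 0.00550).

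The feature fbxb-36, a pseudogene in the RefSeq annotation, had 70.8, 30.1 and 44.7 normalized counts in the mutant libraries and 5.44, 3.13 and 1.94 in the controls. It overlaps the protein-coding gene F07E5.13, which also rose, with a log2 difference of 3.97 (BH-adjusted limma p 0.00511). That gene had 49.3, 43.1 and 33.8 normalized counts in mutants and 5.44, 2.09 and 0 in controls. How the authors assigned reads of overlapping genes is not given in the sources used here, so the reads of F07E5.13 and fbxb-36 may not be separable. The log2 difference of fbxb-36 was 3.45 (SE 0.53, BH-adjusted limma p 0.00274). On the X chromosome, fbxa-170 had 32.9, 85.3 and 83.6 normalized counts in mutants and 9.80, 11.5 and 3.88 in controls. Mutant replicate 1 was the lowest of its group but still above every control, and the log2 difference was 2.85 (SE 0.53, BH-adjusted limma p 0.00641).

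All 8 genes had control libraries close to the floor of detection, where 3 reads are worth 2.44 to 3.79 normalized counts depending on the library, a floor that covers counting error only. The control libraries held 6, 1 and 1 reads of fbxb-52, the gene with the largest difference, and 9, 11 and 4 reads of fbxa-170. Of the remaining 3 genes, fbxb-15 had mutant libraries that held 44.2, 13.8 and 15.2 normalized counts and the controls 0, 4.17 and 3.88, so mutant replicate 1 stood well above the rest. In fbxb-75 they held 35.4, 22.8 and 48.1, against 5.44, 7.30 and 1.94 in controls. In fbxb-35 they held 19, 31.7 and 19.4, against 4.36, 4.17 and 1.94 in controls. The groups did not overlap in fbxb-15, fbxb-75 or fbxb-35, and the log2 differences were 2.92, 2.69 and 2.45 (SE 0.80, 0.56 and 0.54), with BH-adjusted limma p of 0.0330, 0.0107 and 0.0148. The call of fbxb-15 was lost without mutant replicate 1 or 3 or any control replicate (adjusted p 0.0569 to 0.0887), that of fbxb-75 without mutant replicate 3 (0.0557) and that of fbxb-35 without control replicate 3 (0.05003).

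**Figure D3:**
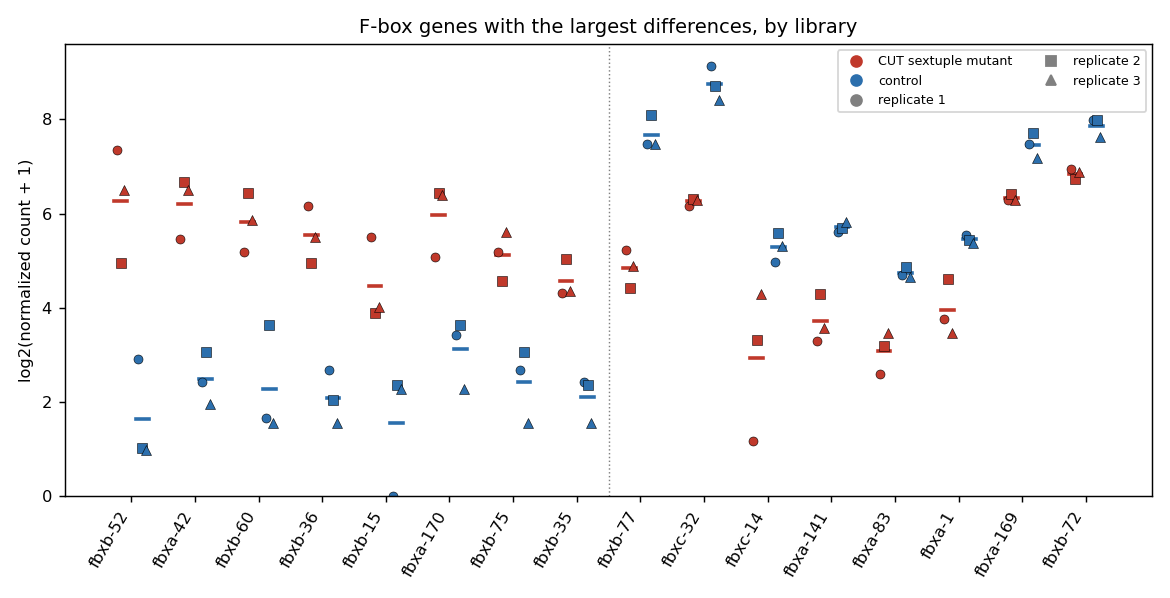
Level of the 8 F-box genes with the largest rises (left of the dotted line) and the 8 with the largest falls (right) in each library, as log2(normalized count + 1). Red is the mutant and blue the control, symbols mark the replicate number, and bars are means of 3 libraries. The colours do not overlap for any of the 16 genes. That follows from their choice, since groups did not overlap for any of the 35 rises and 11 falls past the threshold. The spread among replicates is widest for genes at a few counts.

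Fewer F-box genes fell, and the largest falls were in an fbxb gene and an fbxc gene with over 150 normalized counts in each control library. The largest was in fbxb-77, with 36.7, 20.3 and 28.7 normalized counts in mutant replicates 1, 2 and 3, against 176, 272 and 177 in control replicates 1, 2 and 3. Every mutant library was far below every control library, with a log2 difference of −2.83 (SE 0.31, BH-adjusted limma p 0.000573). For fbxc-32 the mutant libraries were at 70.8, 78.8 and 77.7 and the controls at 565, 416 and 339. The mutant libraries were close together and the controls spread, and the log2 difference of −2.49 (SE 0.23) had the smallest BH-adjusted limma p of the family, 0.000273. Next came fbxc-14, with 1.26, 8.94 and 18.6 in mutants and 30.5, 46.9 and 38.8 in controls. Its mutant mean was under 10, so it passed the filter only through the control libraries. Its log2 difference was −2.36 (SE 0.71, BH-adjusted limma p 0.0463), it was −1.49 without mutant replicate 1, and the call was lost in 8 of 16 alternatives (adjusted p 0.0522 to 0.146). These were a pseudocount of 0.5, no filter, equal totals, edgeR, no variance trend and each control replicate left out.

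Among fbxa genes the largest fall was in fbxa-141, on the X chromosome, with 8.85, 18.7 and 11 normalized counts in mutants and 47.9, 51.1 and 55.3 in controls. Its log2 difference was −1.98 (SE 0.39, BH-adjusted limma p 0.00855). Further falls were those of fbxa-83 (−1.65), fbxa-1 (−1.51), fbxa-169 (−1.13) and fbxb-72 (−1.02), with BH-adjusted limma p of 0.0102 to 0.0319. With a mutant mean of 7.77, fbxa-83 passed the filter only through the control libraries. The calls of fbxa-83 and fbxa-1 were lost under equal totals and without a filter. That of fbxa-83 was also lost without mutant replicate 1 or 3 or any control replicate, that of fbxa-1 without mutant replicate 3 or any control replicate, that of fbxa-169 without control replicate 2 and that of fbxb-72 without control replicate 1 or 2, with adjusted p of 0.0508 to 0.115 over all these alternatives. The other 3 falls were those of fbxb-69, fbxa-167 and fbxc-53, with log2 differences of −0.86, −0.81 and −0.68. None of these 3 calls held when mutant replicate 3, control replicate 1 or control replicate 2 was left out, where their adjusted p were 0.0580 to 0.138. Over all alternatives the call of fbxc-53 was lost in 12 of 17, among them edgeR, equal totals and each library left out, and that of fbxa-167 in 7 of 17, among them equal totals, no variance trend and every library left out except mutant replicate 2.

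A few members carried most of the family's RNA, and the most abundant of them rose. By far the highest was fbxa-24, with 23518, 26984 and 26617 normalized counts in mutant replicates 1, 2 and 3, against 13488, 11071 and 13511 in control replicates 1, 2 and 3. Its means were 25707 ± 1904 in mutants and 12690 ± 1402 in controls (SD, n = 3 each), and the groups were far apart compared with the spread inside each. The log2 difference was 1.02 (SE 0.18, BH-adjusted limma p 0.00537), and the call held in all 17 alternatives. Summed over the 174 fbxa genes, normalized counts were 37743, 44215 and 41437 in mutants and 25799, 23729 and 25449 in controls. Without fbxa-24 the sums were 14225, 17231 and 14820 in mutants and 12311, 12658 and 11938 in controls, still without overlap. The fbxb genes together had 2198 to 2412 normalized counts in mutants and 2014 to 2417 in controls, and the fbxc genes 1227 to 1600 in mutants and 1572 to 1760 in controls, so the summed levels of both families overlapped between groups.

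Per kilobase of annotated exon, the order of the 5 most abundant members was fbxa-24, fbxa-222, fbxa-152, fbxa-10 and fbxa-69. Their mean levels were 15430, 1732, 1672, 1036 and 699 normalized counts per kilobase in mutants, and 7617, 1993, 1630, 615 and 394 in controls, in that order of genes. The library values of fbxa-222 and fbxa-152 spanned 1594 to 2052 and 1539 to 1868 normalized counts per kilobase over all 6 libraries, so these neighbours in the order were not separated. Between the groups, fbxa-10 had 1201, 1522 and 1362 normalized counts in mutants and 674, 947 and 803 in controls, a log2 difference of 0.76 (SE 0.18, BH-adjusted limma p 0.0205). For fbxa-69 the values were 909, 1467 and 1050 in mutants and 748, 563 and 616 in controls, a log2 difference of 0.81 (SE 0.21, BH-adjusted limma p 0.0276). Both calls were lost without a variance trend and without mutant replicate 3 or control replicate 3, that of fbxa-10 also without control replicate 1 and that of fbxa-69 without control replicate 2 (adjusted p 0.0635 to 0.103). The levels of fbxa-152 overlapped between groups, at 1905 to 2313 in mutants and 1954 to 2139 in controls. Those of fbxa-222 were slightly lower in every mutant library, at 1665 to 2029 against 2040 to 2142 in controls, and the log2 difference of −0.21 (SE 0.15) did not pass the threshold.

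Most rises were in fbxa and fbxb genes. Of 118 tested fbxa genes, 24 rose (20.3%) and 5 fell (4.24%), with a median log2 difference of 0.43. Of 31 tested fbxb genes, 9 rose (29.0%) and 3 fell (9.68%), with a median of 0.75. Of 24 tested fbxc genes, 2 rose (8.33%), fbxc-39 (1.75) and fbxc-23 (1.25), and 3 fell (12.5%), with a median of 0.26. These fbxc shares lie near the 7.56% and 10.5% of all features. Both fbxc rises were lost without mutant replicate 3, control replicate 2 or control replicate 3, and that of fbxc-23 also without mutant replicate 2 or control replicate 1 (adjusted p 0.0596 to 0.0982). Differences between the families were not tested. Besides the genes already named, the rises that held in all alternatives run were those of fbxb-66 (2.34), fbxb-26 (2.35), fbxa-2 (2.13), fbxa-74 (1.91), fbxa-14 (1.54) and fbxa-136 (1.35), where the numbers are log2 differences. In fbxb-66 the mutant libraries had 154, 169 and 151 normalized counts and the controls 26.1, 34.4 and 31.1. Both groups were narrow, and its BH-adjusted limma p of 0.000551 was the smallest among the rises.

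**Figure D4:**
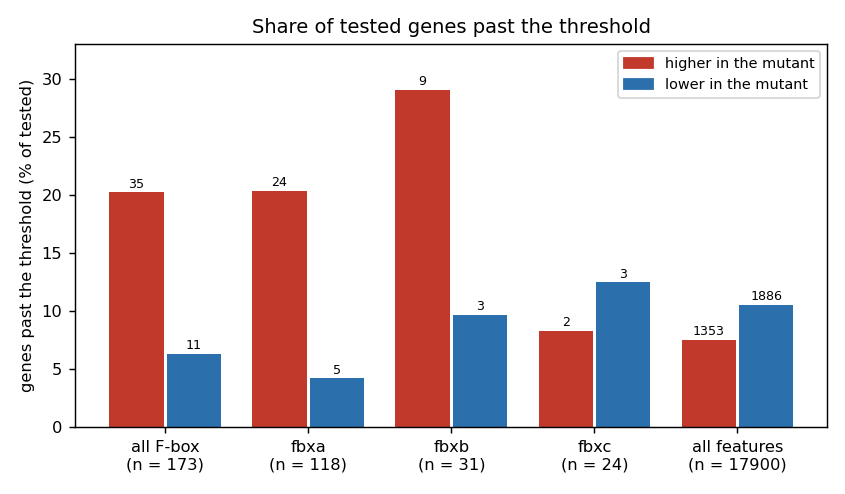
Percent of tested genes past the limma threshold (vertical axis, from 0) that were higher (red) or lower (blue) in the mutant, for all tested F-box genes, each of the 3 families and all features. Numbers over the bars are gene counts. Higher genes outnumber lower ones in fbxa (24 and 5) and fbxb (9 and 3), and lower ones outnumber higher ones among all features (1886 and 1353).

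Positions in assembly WBcel235 were used to see how the members lie along the chromosomes. The fbxa genes were mostly on chromosomes V (71) and III (64), the fbxb genes on chromosome II (60) and the fbxc genes on chromosomes II (35) and IV (13). The share of F-box genes that rose was 22.2% on chromosome III (10 of 45), 23.8% on chromosome II (10 of 42) and 19.2% on chromosome V (10 of 52). Over all tested features of the same chromosomes it was 9.15%, 10% and 6.99%. The other chromosomes had 11 or 12 tested members each, and 1 or 2 rises each. On chromosome X, 1 of 11 F-box genes rose and 1 fell, while 2.53% of all X features rose and 14.3% fell.

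Many members sit side by side, and some overlap one another. With no other protein-coding gene between them, 190 of the 328 formed 54 runs of 2 or more genes, and the longest run held 12 fbxa genes on chromosome III. Of these, 10 were tested and 1 rose, fbxa-31, with 56.9, 52.0 and 49.0 normalized counts in mutants and 24, 17.7 and 28.2 in controls. Its log2 difference was 1.16 (SE 0.33, BH-adjusted limma p 0.0350), and the call was lost without a filter and when any library was left out. The other tested genes of this run had log2 differences of −0.34 (fbxa-28) to 0.75 (fbxa-36), and 8 of these 9 were positive. A shorter run on the same chromosome, singled out after its values were seen, held 9 fbxa genes, of which 8 were tested and 4 rose. These were fbxa-10 and its neighbours fbxa-11, fbxa-23 and fbxa-67, with log2 differences of 0.76, 1.47, 1.73 and 0.86. The features fbxa-23 and fbxa-67 overlap in the annotation, so their reads may not be separable. In fbxa-11 the mutant libraries had 70.8, 97.5 and 122 normalized counts and the controls 29.4, 36.5 and 34.9, and its call was lost without mutant replicate 3 (BH-adjusted limma p 0.0532). The calls of fbxa-23 and fbxa-67 were lost without control replicate 2, and that of fbxa-23 also without mutant replicate 3 (adjusted p 0.0510 to 0.0667). No run held both a gene that rose and a gene that fell, and 1 run held 2 genes that fell, fbxa-167 and fbxa-169 on chromosome II. Apart from piRNA loci, 6 called members overlapped another annotated gene, 5 that rose and 1 that fell. Besides fbxb-36, fbxa-23 and fbxa-67, these were fbxa-11 (noncoding RNA T12B5.16), fbxa-3 (fbxc-19 and linc-16) and fbxa-169 (a pseudogene). Their reads too may not be separable.

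Protein-coding genes next to the changed members were looked at in the same way. Of the 35 F-box genes that rose, 9 (25.7%) had an adjacent protein-coding gene outside the family that also rose, against 27.5% of the 1190 other protein-coding genes that rose. Of the 11 that fell, 1 (9.09%) had such a neighbour that fell, against 33.4% of the 1603 other protein-coding genes that fell. Many members border other members, so these shares are not alike. With neighbours inside the family counted too, 13 of the 35 (37.1%) had a neighbour that rose, against 28.2% of the other genes that rose. For falls it was 3 of the 11 (27.3%), against 33.5%. The following neighbours were singled out after their values were seen. Beside fbxa-170 lies meg-4, a germ granule gene, which had 228, 207 and 265 normalized counts in mutants and 13.1, 17.7 and 17.5 in controls. Beside fbxb-26 lies irld-36, with 377, 480 and 514 in mutants and 50.1, 42.8 and 66.0 in controls. In both, as in their F-box neighbours, every mutant library was above every control library. The opposite was found beside fbxa-128, which rose with a log2 difference of 1.24 (BH-adjusted limma p 0.0407, a call lost without a filter and when any library was left out). Its neighbour pha-1 fell to 83.4, 173 and 92.0 normalized counts in mutants, against 968, 1526 and 928 in controls.

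Among the partners of F-box proteins in SCF ligases, 6 genes passed the threshold. Of 36 genes for Skp1-related proteins, cullins CUL-1 and CUL-6, RING subunits and the neddylation and deneddylation machinery of cullins, 28 were tested, 4 rose (14.3%) and 2 fell (7.14%), with a median log2 difference of 0.28, while 7.56% of all features rose and 10.5% fell. The main fall was in skr-1, which encodes a Skp1-related protein with essential roles in the worm. Its normalized counts were 3951, 2471 and 3454 in mutant replicates 1, 2 and 3, against 8465, 7434 and 9319 in control replicates 1, 2 and 3. Mutant libraries were thus well below the controls, with a log2 difference of −1.37 (SE 0.20, BH-adjusted limma p 0.00245) that held in all 17 alternatives. The other fall was in skr-21, with 87.2, 95.9 and 160 in mutants and 282, 278 and 245 in controls, a log2 difference of −1.27 (SE 0.26, BH-adjusted limma p 0.0102). Among the rises, skr-17 had 20.2, 55.3 and 25.3 in mutants and 3.27, 7.30 and 3.88 in controls, and skr-15 had 48, 19.5 and 49.8 in mutants and 6.53, 11.5 and 6.80 in controls. Their log2 differences were 2.50 and 2.04 (BH-adjusted limma p 0.0143 and 0.0212), and both calls were lost without control replicate 1, that of skr-15 also without mutant replicate 3 or control replicate 3 (adjusted p 0.0521 to 0.0870). The cullin gene cul-1 did not pass, at 1430 to 1473 in mutants and 1268 to 1433 in controls, nor did the RING subunit genes rbx-1 and rbx-2, with log2 differences of 0.25 and −0.10.

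The members fbxa-75 and fbxa-158 are known for acting with CUL-6 and SKR-3 in a ligase of the intracellular pathogen response, a transcriptional programme that worms start on infection by microsporidia or virus. The gene fbxa-75 was near 0, with 0, 3 and 4 reads in mutant replicates 1, 2 and 3 and no read in any control library. The gene fbxa-158 had 19, 52.8 and 22.8 normalized counts in mutants and 18.5, 36.5 and 27.2 in controls, so the groups overlapped, with a log2 difference of 0.10 (SE 0.46). Some other genes listed for that programme rose. Of 11 genes listed for it, 10 were tested and 5 rose (50%, against 7.56% of all features). None fell by limma, edgeR or DESeq2 or had a negative difference with an unadjusted limma p below 0.05. The genes skr-4, skr-5, pals-22 and pals-25 did not pass the threshold. Of the 5 rises, those of cul-6 and skr-3 are also counted among the rises of the SCF list above. Over the 10 tested genes the median log2 difference was 0.75. Summed normalized counts of the list were 3428 to 4115 in mutants and 2086 to 2267 in controls. Most of that sum came from zip-1 and drh-1, with means of 1697 and 947 in mutants, where the list's mean sum was 3718. The listed genes differ in role, so the share, median and sum do not measure the activity of the programme. Whether the programme was active was not tested.

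Within that list, drh-1, which encodes a sensor of viral RNA, had 1009, 990 and 843 normalized counts in mutants and 375, 461 and 382 in controls. The transcription factor gene zip-1 had 2049, 1466 and 1576 in mutants and 948, 844 and 1074 in controls. In both, mutant libraries lay above all controls, with log2 differences of 1.22 and 0.82 (BH-adjusted limma p 0.00194 and 0.0154). The call of drh-1 held in all 17 alternatives, and that of zip-1 was lost without a variance trend and without mutant replicate 3, control replicate 1 or control replicate 2 (adjusted p 0.0510 to 0.0679). The gene cul-6 had 97.3, 149 and 127 in mutants and 67.5, 57.4 and 75.7 in controls, and skr-3 had 219, 220 and 201 in mutants and 135, 114 and 150 in controls. Their log2 differences of 0.87 and 0.68 passed narrowly (BH-adjusted limma p 0.0440 and 0.0453). Both calls were lost without a filter and without a variance trend, that of cul-6 also without mutant replicate 2 or 3 or any control replicate, and that of skr-3 when any library was left out (adjusted p 0.0561 to 0.143). The reporter gene of the programme, pals-5, was low, at 10.1, 14.6 and 28.7 in mutants and 2.18, 6.26 and 0.971 in controls (BH-adjusted limma p 0.0496). That call was lost with a pseudocount of 0.5, without a filter and with each library but mutant replicate 1 left out (adjusted p 0.0536 to 0.169).

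**Figure D5:**
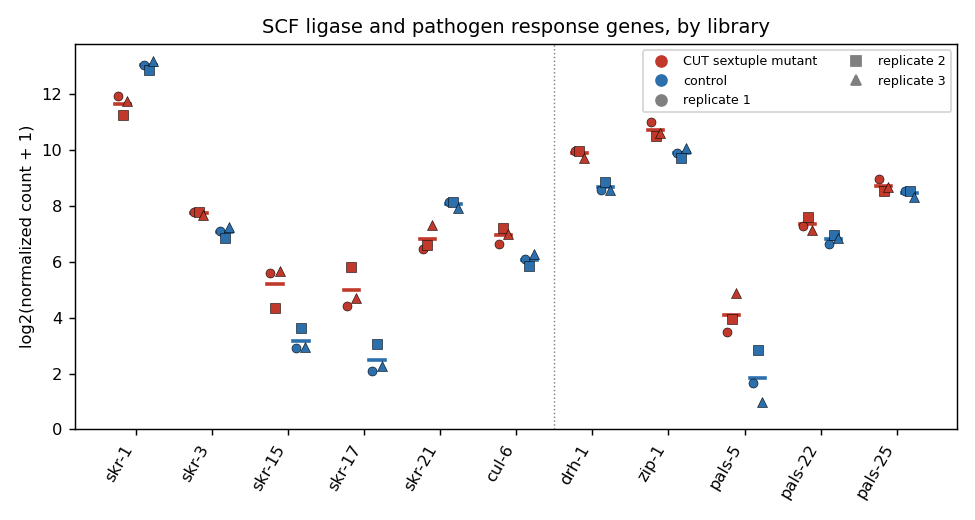
Level in each library, as log2(normalized count + 1), of the 6 SCF genes past the threshold (left of the dotted line) and of pathogen response genes (right), with mutants in red, controls in blue, replicate numbers as symbols and means of 3 libraries as bars. The genes skr-1 and skr-21 are lower in all 3 mutant libraries and the other 4 SCF genes higher, and pals-22 and pals-25 did not pass the threshold.

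F-box genes with names of their own, among them genes with relatives in other animals, were listed separately. All 10 of them were tested and none passed the threshold by limma, edgeR or DESeq2, with 1 lower by limma at an unadjusted p below 0.05 and a median log2 difference of 0.03. They include lin-23, at 3666 to 4597 normalized counts in mutants and 4264 to 4499 in controls, and sel-10, at 1123 to 1275 in mutants and 1164 to 1302 in controls, both of which encode adaptors that target regulatory proteins for degradation. They also include fsn-1, a regulator of synapse formation, at 576 to 583 in mutants and 468 to 586 in controls. Whether these 10 differ from the fbxa, fbxb and fbxc genes was not tested. A further list, the genes for MATH-domain proteins with bath and math symbols, had 46 of 78 members tested. The list was drawn by symbol, and not all of its genes are known ubiquitin ligase adaptors. Of these, 4 rose and 4 fell (8.70% each, near the 7.56% and 10.5% of all features), with 32 positive differences and a median log2 difference of 0.44. Groups did not overlap for 15 that were higher (32.6%) and 5 that were lower (10.9%), against 19.5% and 20.4% of all features. This median and these shares lie near the 0.39, 35.3% and 12.1% of the tested F-box genes, so the upward shift was not particular to F-box genes. Differences between these families were not tested. The largest rise there was in bath-25 (217, 153 and 137 normalized counts in mutants and 51.2, 25 and 37.9 in controls), and the largest falls were in bath-9 (1.26, 1.63 and 14.4 normalized counts in mutants and 57.7, 61.5 and 88.3 in controls) and bath-10 (6.32, 1.63 and 5.06 in mutants and 59.9, 30.2 and 52.4 in controls).

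The remaining 155 F-box genes averaged under 10 normalized counts and were not tested, among them 75 of the 106 fbxb genes, 56 fbxa genes and 24 fbxc genes. Of these, 17 had no read in any library, and 10 of the 17 were fbxc genes that form 1 unbroken run on chromosome IV. Several of these 10 overlap one another in the annotation, as fbxc-2 and fbxc-3 do with fbxc-4, and fbxc-9, fbxc-10 and fbxc-11 with fbxc-8. No more can be said of a gene without reads than that its level, in reads assigned to it, was under the worth of 3 reads per library. Read counts of overlapping genes and of near-identical gene copies depend on how reads that fit several genes or places were treated. That treatment is not given in the sources used here. Of the other 138, 35 had reads in all 6 libraries, 13 (9.42%) had reads in mutant libraries alone and 1 (0.725%) in control libraries alone. Among all 14861 features with reads under that limit, 17.2% had reads in mutant libraries alone and 11.8% in control libraries alone. Groups did not overlap for 21 of the 138 that were higher in the mutant (15.2%) and 3 that were lower (2.17%), while 6.38% and 3.16% of all such features were higher and lower in that way. Summed over all 155, normalized counts were 358, 580 and 948 in mutant replicates 1, 2 and 3 and 280, 412 and 298 in control replicates 1, 2 and 3, so the groups overlapped. The members just under the limit of 10 were fbxb-25 and fbxa-94, and those just over it were fbxc-17 and fbxb-111. Of these, fbxb-25 had 12.6, 21.9 and 21.9 normalized counts in mutants and 0, 1.04 and 1.94 in controls, and fbxa-94 had 16.4, 16.3 and 13.5 in mutants and 4.36, 2.09 and 6.80 in controls. Values of fbxc-17 were 10.1, 12.2 and 14.4 in mutants and 12, 11.5 and 1.94 in controls, and those of fbxb-111 were 7.58, 20.3 and 16.0 in mutants and 7.62, 3.13 and 5.82 in controls.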

How the data were processed

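Values were analysed as a signal normalized for depth, which the authors deposited as DESeq2-normalized counts, per the title of their table. STAR, featureCounts and DESeq2 are named in the submitters' processing notes, and versions, genome build, annotation, strand setting and treatment of multi-mapping reads are not given in the sources used here. Every value was a whole multiple of its library's step within 0.01 reads (100% of values), which gave the reads behind it. Features with a mean of at least 10 were tested on log2(normalized count + 1) in R 4.3.3 (limma 3.58.1, genotype as factor, variance trend, Benjamini-Hochberg or BH adjustment over 17900 features). The fits were tested on simulated data. Genes were matched by symbol, but the choice of this family, the lists and the tests was made with earlier results of these data known. Alternatives were other pseudocounts (0.5, 5), filters (none, 50) and scalings, no trend, the replicate block, edgeR 4.0.16 and DESeq2 1.42.0 on the recovered reads, and leaving out each library. On those reads, whole for 100% of values, edgeR called 3309 features (1582 higher, 1727 lower) and DESeq2 4225 (2011 higher, 2214 lower). The replicate numbers come from the sample titles. After subtraction of group means the libraries sharing a number correlated at 0.25, 0.20 and 0.15 for numbers 1, 2 and 3. They were taken as pairs in the replicate block alternative only. The main fit, with the SE and p-values given above, did not use the pairing. Symbols matched Ensembl release 115 (WBcel235) for 311 members and RefSeq for the other 17, and exon lengths came from Ensembl. Genes named were the 8 largest changes per direction among calls, the 5 highest members, fbxa-75, fbxa-158, those nearest the filter limit, the longest run and the SCF genes past the threshold, and others are said to be chosen after their values were seen or belong to the lists.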

Additional observations from a re-analysis of the deposited data

How the results depend on the processing

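None of the 46 F-box calls changed sign, and 15 of them (12 rises, 3 falls) passed in every alternative run for them. With the replicate block, 39 F-box genes rose and 13 fell, and the pairing changed none of the 46 calls. The count of rises was 16 of 61 tested at a minimum mean of 50. The count of falls was 7 without a filter, 7 at a minimum mean of 50 and 6 under equal totals. Leaving out 1 library gave 17 to 32 rises and 3 to 12 falls. Fewer libraries and, at the minimum of 50, fewer genes were tested there, and otherwise the cause was not tested. Over the lists of SCF genes, separately named F-box genes, MATH-domain genes and pathogen response genes together, 11 genes rose and 6 fell. The rises were 7 without a variance trend and 3 to 10 with a library left out, when falls numbered 6 to 7. Depth limits the genes with control libraries near 3 reads.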
